A study of Mus musculus with 6 samples.

Results

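Cholesterol synthesis, its control by the transcription factor SREBP-2 and the uptake, transfer and storage of sterols are described here through 29 named genes, compared between livers with and without Pex5. Each gene was represented by a probe set that carries its symbol alone in the platform annotation, and where several did, by the one with the highest mean over all 6 arrays. This gave values for 26 of the 29 genes, among 18193 genes measured in the same way. Acat2, the thiolase that opens the pathway, and Soat1 and Soat2, which esterify cholesterol for storage, had no such probe set and were not analysed here.

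Affymetrix arrays were hybridised with total RNA from whole liver of male mice aged 10 weeks. The 3 control mice have the genotype WT and the 3 others are labelled L-Pex5 knockout (KO). Both groups carry the background written as mixed, Alb-Cre Tac:[Sw]fBR, so the label places the recombinase, which the albumin promoter drives in hepatocytes, in the controls as well. Pex5 is the receptor that brings newly made enzymes into peroxisomes, and the series asks what the liver changes when hepatocytes lose that import. The pieces of liver hold all liver cell types, so that fewer cells of a type and less RNA per cell cannot be told apart. The series text calls the samples biological replicates and says no more of them. The p-values set the difference between the groups against the spread of these 6 samples within their groups.

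Cholesterol is built from acetyl-CoA through mevalonate, the isoprenoids, squalene and lanosterol, and the liver is a major site of this synthesis. SREBP-2 is held in the membrane of the endoplasmic reticulum by its escort Scap and the Insig proteins while sterols are plentiful. When sterols run low it travels to the Golgi, where the site-1 and site-2 proteases (Mbtps1 and Mbtps2) cut it free to switch on the genes of synthesis and uptake. Where the early enzymes of the pathway lie, in the cytosol or in peroxisomes, has been argued over for years.

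The stretch of 150 bases before the start site is shown for the 5 genes that passed the test and for Hmgcs1, the one match to the sterol element among the 24 members searched. Sequences are those of RefSeq on the mouse build GRCm38.p6, written 5′ to 3′ on the strand of the gene. Capitals mark matches, on either strand, to TCACNCCAC (a sterol regulatory element), CCAAT (the NF-Y box) and GGGCGG (the Sp1 box), and no matches overlap each other in the windows printed. Hmgcs1 lies on the plus strand (chr13:119690201-119690350), as do Srebf2 (chr15:82147119-82147268) and Scap (chr9:110333138-110333287). Hsd17b7 (chr1:169969206-169969355), Insig2 (chr1:121332590-121332739) and Mbtps2 (chrX:157598716-157598865) lie on the minus strand. For Insig2 and Scap, which have several start sites in the table, the one farthest upstream is shown.
Hmgcs1: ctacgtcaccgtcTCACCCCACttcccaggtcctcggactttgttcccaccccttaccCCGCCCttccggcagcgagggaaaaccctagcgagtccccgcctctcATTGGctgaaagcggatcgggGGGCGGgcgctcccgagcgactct
Hsd17b7: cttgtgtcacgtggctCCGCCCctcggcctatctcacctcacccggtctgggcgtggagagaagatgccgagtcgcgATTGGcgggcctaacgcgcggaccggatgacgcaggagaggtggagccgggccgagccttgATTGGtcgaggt
Srebf2: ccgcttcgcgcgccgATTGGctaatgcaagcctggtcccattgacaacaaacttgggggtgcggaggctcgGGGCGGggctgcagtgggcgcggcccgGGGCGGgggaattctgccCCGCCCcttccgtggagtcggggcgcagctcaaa
Insig2: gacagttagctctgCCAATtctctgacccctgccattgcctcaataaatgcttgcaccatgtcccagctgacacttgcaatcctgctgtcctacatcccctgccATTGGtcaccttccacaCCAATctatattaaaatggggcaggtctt
Scap: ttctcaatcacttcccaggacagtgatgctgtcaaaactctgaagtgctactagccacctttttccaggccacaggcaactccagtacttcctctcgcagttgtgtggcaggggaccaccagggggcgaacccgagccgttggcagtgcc
Mbtps2: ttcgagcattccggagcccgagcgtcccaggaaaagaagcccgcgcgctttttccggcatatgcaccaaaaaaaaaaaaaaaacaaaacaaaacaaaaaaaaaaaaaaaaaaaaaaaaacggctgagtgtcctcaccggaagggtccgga

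Hmgcs1 holds the sterol element with an NF-Y box and 2 Sp1 boxes downstream of it, and Hsd17b7 holds 2 NF-Y boxes and 1 Sp1 box. Srebf2 holds 1 NF-Y and 3 Sp1 boxes and Insig2 3 NF-Y boxes, whereas the stretches of Scap and Mbtps2 hold no match to any of the 3 motifs. Of the 29 members, 24 are in the promoter table (the others are Fdft1, Fdps, Soat2, Sqle and Stard4), and the whole window in it runs from 250 bases before to 50 after a start site. In that window a CCAAT box was found in 20 of 24 members (83.3%), against 42.0% of the 14452 genes tested on the arrays that the table holds and 41.1% of all its 27025 genes. A gene with several start sites counted if any of its windows held a match. All enzymes in the table other than Acat2 had a CCAAT box (15 of 16), Dhcr7 only at the farthest downstream of its 3 start sites. Of the control genes Srebf2, Insig1 and Insig2 had a CCAAT box while Scap, Mbtps1 and Mbtps2 did not. GGGCGG was found in 21 of 24 members (87.5%, against 57.3% of the tested genes), and TCACNCCAC in 1 of 24 (4.17%, against 1.46%). A match is a description of letters, and other spellings of the sterol element were not searched.

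Among the 26 measured members 2 were higher in KO, Hsd17b7 and Mbtps2, and 3 were lower, Srebf2, Scap and Insig2 (limma, Benjamini-Hochberg adjusted p under 0.05 over all genes). Of all 18193 genes 14.2% were higher and 9.75% lower, 24% together, so the share of members with a call is near that of the arrays as a whole. The median difference of the members, KO minus WT, was 0.039 on the log2 scale, against -0.055 over all genes, with 14 members above 0 and 12 below. The KO livers lay wholly above the WT livers in 6 members (22.1% of all genes) and wholly below in 8 (22.6%), so 14 of 26 did not overlap, where 44.8% of all genes did not. By role, 4 of the 5 calls fell among the 6 genes that control SREBP-2, and 1 among the 18 measured enzymes. The count depends on the livers and the scale. Without KO replicate 1 it was 1 higher and 5 lower, without WT replicate 3 it was 1 and 4, with quantile normalization 4 and 6, and with the arrays centred on their medians 2 and 5. Centring on the bacterial control transcripts, which were dimmer on the KO arrays by 0.44 (exact two-sided permutation p = 0.1, the smallest that 3 against 3 arrays can give), adds that amount to every difference and gave 12 higher and 2 lower. Each direction given here is thus a direction against the bulk of transcripts.

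**Figure D1:**
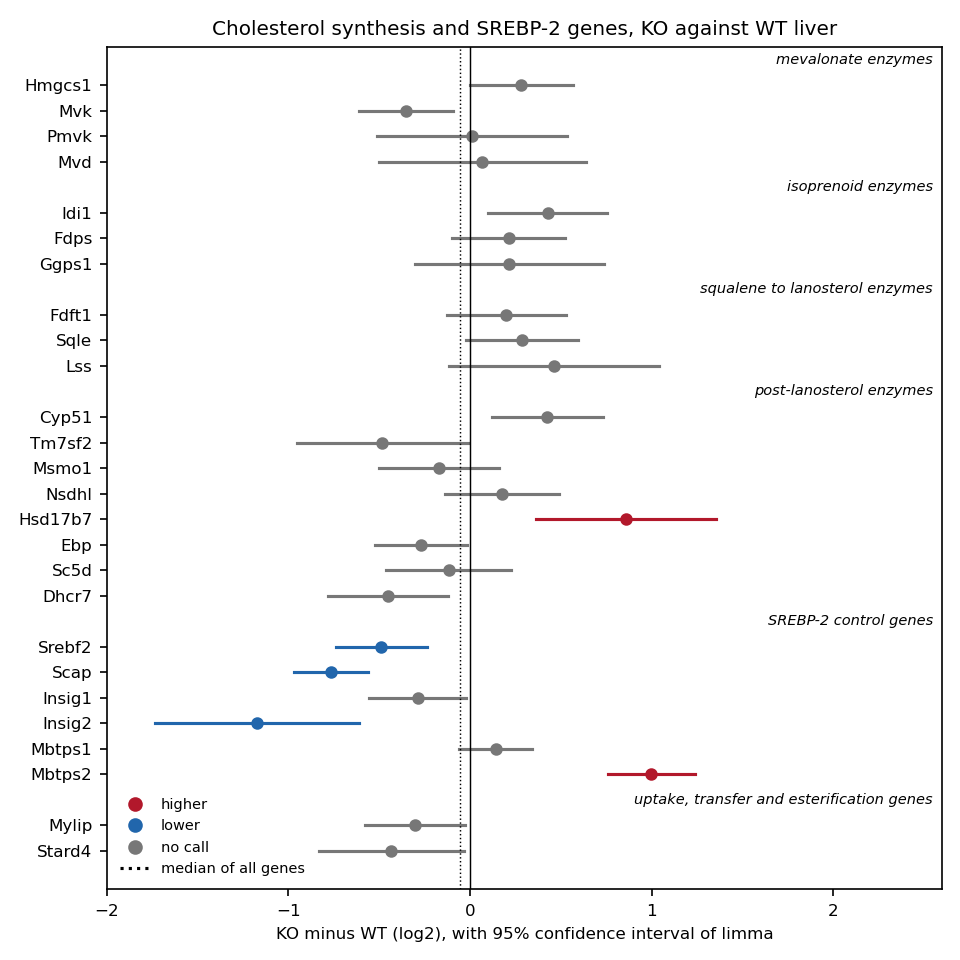
KO minus WT on the log2 scale for the 26 measured members, by role, as points with limma's 95% confidence interval (3 KO against 3 WT livers). Red and blue points passed the test as higher and lower, grey ones did not, and the dotted line is the median of all genes (-0.055). The 3 lower calls lie among the control genes, and most enzymes down to Cyp51 lie to the right of 0 without a call.

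The genes that sense sterols and release SREBP-2 held 4 of the 5 calls, with both directions among them. Scap, the escort that carries SREBP-2 to the Golgi and senses cholesterol, stood at 10.58, 10.56 and 10.72 in WT replicates 1 to 3 and at 9.87, 9.85 and 9.85 in KO. All KO livers lay below all WT livers, with hardly any spread among them, and Scap was 1.70-fold lower (-0.77 ± 0.09, SE, adjusted p = 0.000849). Mbtps2, the site-2 protease that makes the last cut, stood at 7.37, 7.30 and 7.10 in WT and at 8.17, 8.34 and 8.27 in KO. Every KO liver was above every WT liver, a 2.00-fold rise (1.00 ± 0.10, adjusted p = 0.000532). These 2 calls held under each of the 18 alternatives run, Scap with differences from -0.80 to -0.25 and Mbtps2 with differences from 0.85 to 1.51. Mbtps1, the site-1 protease that cuts first, stood at 8.82, 8.66 and 8.69 in WT and 8.86, 8.87 and 8.86 in KO. By this probe set, its brightest, the KO livers also lay above the WT livers, but by 0.14 ± 0.09 (adjusted p = 0.273), so it did not pass. The dimmer probe sets of Mbtps1 gave 0.23 and -0.12, with overlapping livers in both, and did not pass.

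Insig2, an anchor that keeps Scap in the endoplasmic reticulum with a liver form known to rise in fasting, gave the largest difference of all members. It stood at 12.34, 11.67 and 11.50 in WT (11.84 ± 0.45, SD, n = 3) and at 10.91, 10.80 and 10.28 in KO (10.66 ± 0.34). The groups did not overlap although WT replicate 1 stood well above the other WT livers. Insig2 fell 2.25-fold (-1.17 ± 0.24, adjusted p = 0.0113), and it is the one member with a difference of at least 2-fold before rounding, a size reached by 5.06% of all genes. Insig1, its relative and itself an SREBP target, stood at 11.06, 10.89 and 11.01 in WT and at 10.89, 10.69 and 10.53 in KO. Its KO livers were all below the WT livers, KO replicate 1 by less than 0.01 under WT replicate 2, and the difference of -0.29 ± 0.12 did not pass (adjusted p = 0.107).

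Srebf2, which encodes SREBP-2, stood at 8.30, 8.14 and 8.22 in WT and at 7.79, 7.55 and 7.85 in KO. The groups were apart, and this probe set was 1.40-fold lower (-0.49 ± 0.11, adjusted p = 0.0147, from 0.00618 to 0.853 over the alternatives). Leaving out KO replicate 2 ended the call (adjusted p = 0.0552), as did averaging the probe sets (-0.20, adjusted p = 0.219), and centring on the bacterial controls left -0.047. The second probe set of Srebf2 differed by 0.08 (adjusted p = 0.759), so the fall of Srebf2 rests on 1 of its 2 probe sets.

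**Figure D2:**
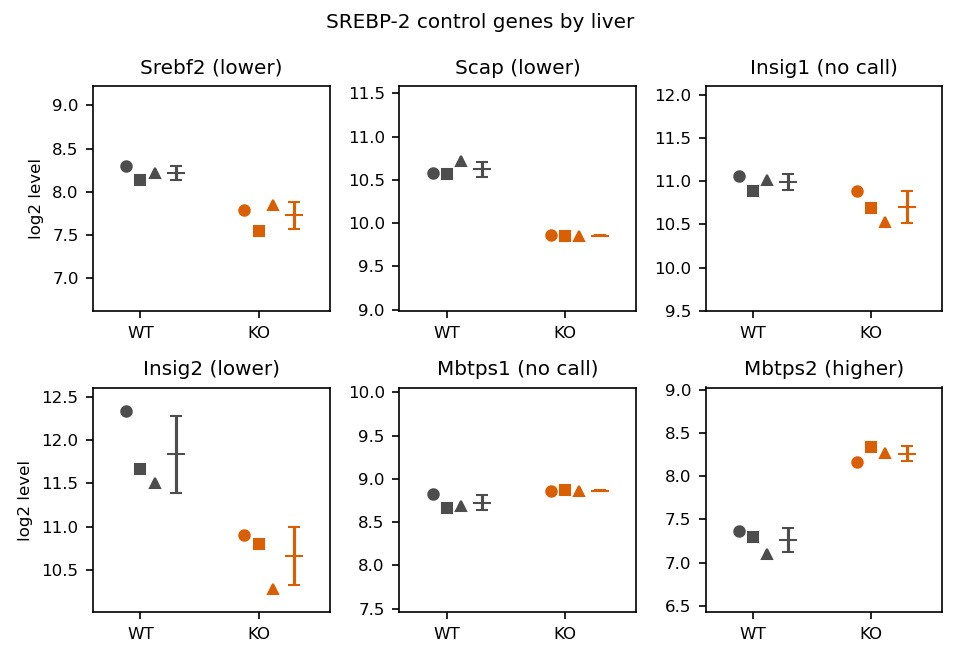
Log2 level of the 6 genes that control SREBP-2 in each liver (circle, square and triangle are replicates 1, 2 and 3), with the mean ± SD of each group beside the points. Each panel spans the same number of log2 units around its own level. The groups are far apart in Scap, Mbtps2 and Insig2, closer in Srebf2, and differ by 0.14 in Mbtps1 and -0.29 in Insig1, neither of which passed the test.

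Of the 18 measured enzymes of the pathway 1 was higher and 0 were lower by limma's adjusted p, against 14.2% and 9.75% of all genes. At an unadjusted p under 0.05 there were 4 in each direction, against 20% of all genes higher and 18.5% lower. No other tool was run on them. Their median difference was 0.19, and 12 lay above 0 (66.7%, against 42.5% of all genes). That number was 10 with quantile normalization, 11 with median centring and 16 after centring on bacterial control transcripts. Without KO replicate 1 no enzyme was higher and 2 were lower, and the median was 0.059.

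In the mevalonate steps Hmgcs1 and Mvk went different ways without passing. Hmgcs1, the cytosolic HMG-CoA synthase that carries the sterol element shown above, stood at 13.00, 12.95 and 12.78 in WT and at 13.41, 13.11 and 13.06 in KO. The KO livers were all above the WT livers, by 0.28 ± 0.12 (adjusted p = 0.129). Mvk, the mevalonate kinase, stood at 8.67, 8.58 and 8.48 in WT and at 8.41, 8.12 and 8.13 in KO, all KO below all WT. Its difference of -0.35 ± 0.11 missed the threshold narrowly (adjusted p = 0.0538, over the alternatives 0.0155 to 0.517), and leaving out KO replicate 1 brought it past as lower (-0.45, adjusted p = 0.043). Pmvk and Mvd, the phosphomevalonate kinase and the decarboxylase that end this stretch, differed by 0.01 ± 0.23 and 0.07 ± 0.25, and their livers overlapped. Their intervals, from -0.51 to 0.53 and from -0.50 to 0.64, leave room for differences of about the size called in other genes.

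By their brightest probe sets the isoprenoid and squalene enzymes lay above 0 in all 6 measured cases, and none passed. A dimmer probe set above background lay below 0 for Fdft1 (-0.30) and for Ggps1 (-0.09), while their remaining ones lay above. Without WT replicate 3 the brightest one of Ggps1 also lay below 0 (-0.05). Idi1, which isomerises isopentenyl diphosphate, stood at 11.69, 11.81 and 11.41 in WT and at 12.26, 11.86 and 12.09 in KO. Its groups touched without overlapping, at 0.43 ± 0.14 (adjusted p = 0.0617, from 0.00118 to 0.193), and it passed with quantile normalization (adjusted p = 0.026). Fdps, which makes farnesyl diphosphate, differed by 0.21 ± 0.13 and Ggps1, which extends it for protein prenylation, by 0.22 ± 0.23. Fdft1, the squalene synthase, differed by 0.20 ± 0.14 and Sqle, the squalene epoxidase, by 0.29 ± 0.13 (adjusted p = 0.155). Lss, which folds the epoxide into lanosterol, stood at 10.14, 9.84 and 9.85 in WT and at 10.72, 10.74 and 9.77 in KO. KO replicate 3 was the lowest of all 6 livers while the other KO livers were the highest, so that 0.47 ± 0.25 did not pass (adjusted p = 0.21, from 0.00518 to 0.499), and without that liver Lss was higher by 0.78 (adjusted p = 0.00948).

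Of the 8 enzymes after lanosterol 1 was higher and 7 had no call. Hsd17b7, the ketosteroid reductase of the C4 demethylation complex, was the one enzyme with a call. It stood at 10.34, 10.28 and 9.85 in WT (10.15 ± 0.27, SD, n = 3) and at 11.25, 11.24 and 10.54 in KO (11.01 ± 0.41). Replicate 3 was the lowest of both groups, yet all KO livers were above all WT livers, and Hsd17b7 rose 1.81-fold (0.86 ± 0.22, adjusted p = 0.0241, from 0.000616 to 0.0942). The call was lost without WT replicate 3, KO replicate 1 or KO replicate 2 (adjusted p = 0.0614, 0.0886 and 0.0942), with differences of 0.70, 0.74 and 0.74. The partners of Hsd17b7 in the same complex had no call, and the difference between the genes was not tested. By its brightest probe set Msmo1, the C4 methyl oxidase, differed by -0.17 ± 0.14, and Nsdhl, the decarboxylase, by 0.18 ± 0.14, with overlapping livers in both. A dimmer probe set of Msmo1 above background gave 0.59 ± 0.20, with all KO livers above all WT livers. It did not pass by limma over all probe sets (adjusted p = 0.0804).

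Cyp51, which removes the 14-methyl group of lanosterol, stood at 10.87, 10.99 and 10.90 in WT and at 11.57, 11.08 and 11.38 in KO. Its KO livers were all above WT, by 0.43 ± 0.13 (adjusted p = 0.0511, from 0.000791 to 0.461), and it passed as higher in 9 of the 18 alternatives, among them leaving out KO replicate 2 (0.56, adjusted p = 0.0232). Dhcr7, the last reductase of the route through 7-dehydrocholesterol, stood at 11.14, 11.04 and 10.86 in WT and at 10.84, 10.49 and 10.36 in KO. It lay lower in all KO livers, by -0.45 ± 0.14 (adjusted p = 0.0534, over the alternatives 0.0263 to 0.938), a fall that passed in 8 alternatives, among them leaving out WT replicate 3 (-0.53, adjusted p = 0.0484) or KO replicate 1 (-0.59, adjusted p = 0.0263). Tm7sf2, a sterol C14 reductase, differed by -0.48 ± 0.20 (adjusted p = 0.123), Ebp, the sterol isomerase, by -0.27 ± 0.11 (adjusted p = 0.114), and Sc5d, the C5 desaturase, by -0.12 ± 0.15 (adjusted p = 0.594). Of these, Ebp had all KO livers below all WT livers.

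Both measured genes of uptake and transfer lay below 0 without passing. Mylip, a ubiquitin ligase that marks lipoprotein receptors for degradation, stood at 8.08, 7.75 and 8.13 in WT and at 7.63, 7.75 and 7.67 in KO. WT replicate 2 stood with the KO livers, and without it the difference of -0.30 ± 0.12 (adjusted p = 0.104, from 0.0313 to 0.284) became -0.42 and passed (adjusted p = 0.0313). Stard4, which ferries cholesterol between membranes, stood at 10.18, 10.09 and 10.06 in WT and at 9.89, 9.88 and 9.25 in KO. All its KO livers were below WT, most of all replicate 3, and -0.43 ± 0.17 did not pass (adjusted p = 0.105).

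The enzymes varied more between livers of one group than most genes did, and they varied together. The median within-group SD was 0.203 for the 18 enzymes and 0.143 for all genes, and 11 of the 18 lay at or above the 75th percentile of all genes (61.1%, against 25%). All genes include 5329 that lay below background in both groups. A wide spread was not theirs alone. It was larger in the 10 measured genes of SREBP-1 and lipogenesis (0.355, 90%) and smaller in 15 of other mevalonate branches (0.135, 6.67%). KO replicate 1 was the highest KO liver in 16 of 18 enzymes (88.9%, against 33% of all genes) and KO replicate 3 the lowest in 13 (72.2%, against 36%). In WT, replicate 1 was the highest liver in 13 of 18 (72.2%, against 32.6%). The median enzyme stood 0.22 above the KO mean in KO replicate 1 and 0.20 below it in KO replicate 3, with no such offset over all genes (0.0063 and -0.0031). Over all 26 members KO replicate 1 was the highest KO liver in 76.9% and KO replicate 3 the lowest in 69.2%. Outside the enzymes, Insig1, Insig2 and Stard4 also ran down from KO replicate 1 to 3, whereas Srebf2, Mbtps1, Mbtps2 and Mylip did not. The 3 KO livers differed by little in Scap, at 9.87, 9.85 and 9.85.

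**Figure D3:**
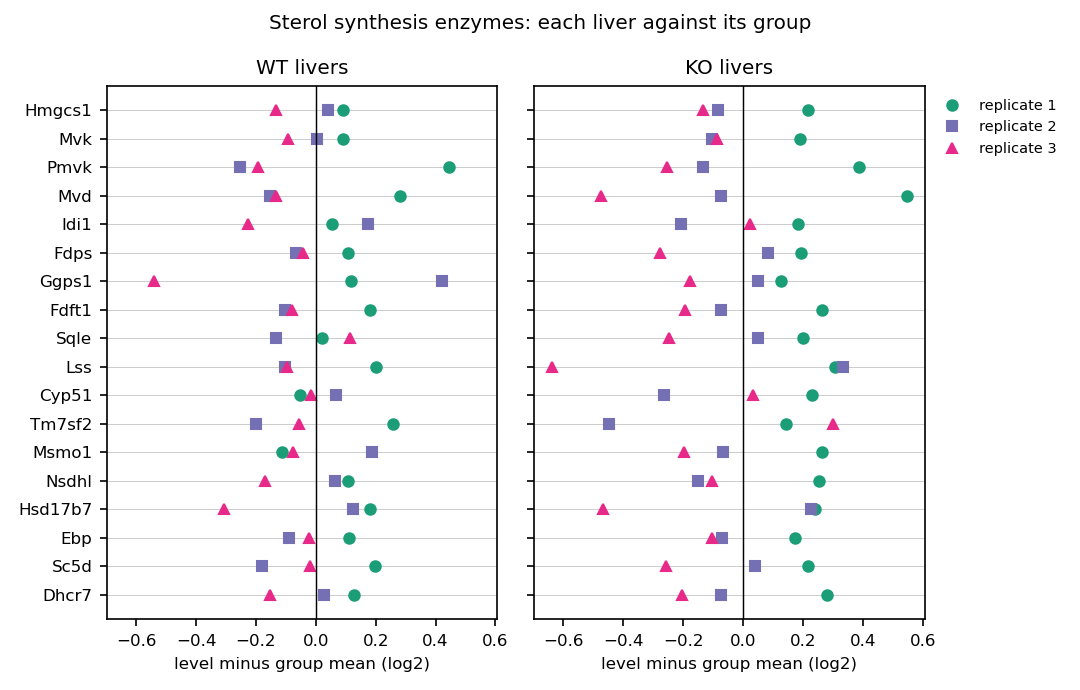
Level of each of the 18 measured enzymes in each liver minus the mean of its group (log2), WT livers on the left and KO livers on the right, with circle, square and triangle for replicates 1, 2 and 3. Circles lie to the right of 0 in all enzymes of the KO panel, and triangles to the left in most of them.

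Other probe sets of the members bear on how far the brightest one speaks for its gene. The members had 58 probe sets, 54 of them above background, which was set at 4.90 from olfactory receptor genes, and 17 members had more than 1. Adjusted over all 45037 probe sets, 5 of the members' were higher and 5 lower, where 9.59% of all probe sets were higher and 6.69% lower. All 3 bright probe sets of Hsd17b7 were higher (0.86, 0.75 and 0.77) and all 3 of Insig2 were lower (-1.17, -0.98 and -1.07). In 6 members bright probe sets differed in sign, among them Cyp51, with 0.43, -0.58 and 0.70, of which the last was higher (adjusted p = 0.0368). Sc5d gave -0.12, -0.89 and -0.73, the latter pair with wider errors and just short of the threshold (adjusted p = 0.0615 and 0.0534). In the fit of 1 probe set per gene chosen by its interquartile range, the probe set at -0.89 passed as lower (adjusted p = 0.0444), whereas the brightest one passed as higher with 1 of the centrings on control transcripts (0.40). Mbtps2 has 1 probe set, and the second one of Scap lies below background, so neither call has a second reading.

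**Figure D4:**
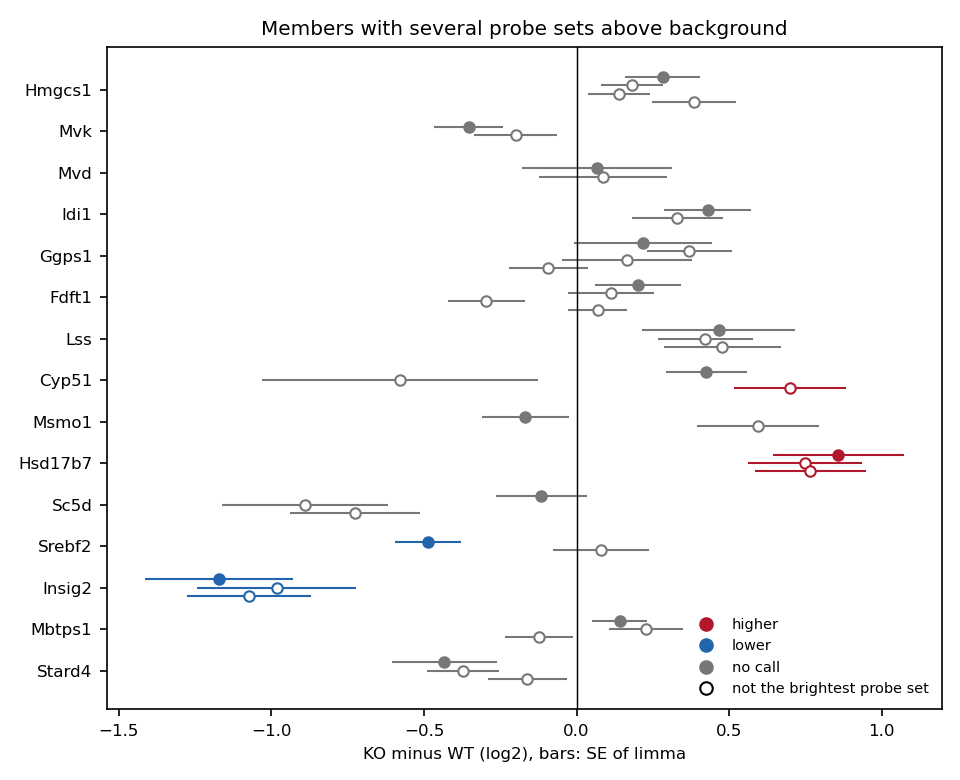
KO minus WT (log2) with limma's SE for members with several probe sets above background, filled points being the brightest probe set of the gene and open points the others. Red and blue mark those that passed as higher and lower. The probe sets of Hsd17b7 and of Insig2 lie together, and those of Cyp51, Fdft1, Msmo1, Srebf2 and a few others fall on both sides of 0.

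Genes next to the pathway were read from lists that hold no members. Over all genes 14.2% were higher and 9.75% lower, the shares to set beside each count of calls in the lists and markers below. At an unadjusted p under 0.05 by limma the shares were 20% and 18.5%. No list was tested as a set. Of 15 measured genes of other mevalonate branches 3 were higher and 0 lower by limma, with 3 and 1 at an unadjusted p under 0.05. They were Rabggtb, a subunit of the transferase that prenylates Rab proteins (9.27, 9.13 and 8.83 in WT, 9.83, 10.01 and 9.78 in KO, 0.80 ± 0.13, adjusted p = 0.0042), Fntb, a subunit of farnesyltransferase (0.45 ± 0.12), and Coq2, which prenylates the ring of coenzyme Q (0.44 ± 0.09). The call of Fntb was lost when WT replicate 3 or any KO liver was left out. Of 4 measured sterol enzymes and electron donors outside the members 1 was lower, Cyb5r3, the reductase that feeds electrons through cytochrome b5 to the sterol oxidases. It went from 12.01, 11.90 and 12.09 in WT to 11.08, 11.19 and 11.08 in KO (-0.88 ± 0.09, adjusted p = 0.000534).

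Among 10 measured genes, the partners of sterol sensing and degradation in the endoplasmic reticulum together with Fbxw7, 3 were higher and 1 lower. Fbxw7, the ubiquitin ligase subunit that marks nuclear SREBPs for destruction, stood at 6.49, 6.41 and 6.32 in WT and at 7.97, 7.95 and 7.42 in KO. The groups were far apart, and it rose 2.59-fold (1.37 ± 0.16, adjusted p = 0.000778). Erlin1, a membrane protein that binds cholesterol and the SREBP complex, rose by 0.47 ± 0.10, and Tmem97, a sterol-regulated membrane protein, by 0.36 ± 0.10. Syvn1, the ubiquitin ligase of degradation in the endoplasmic reticulum, was lower (-0.53 ± 0.13). The calls of Tmem97 and Syvn1 were each lost when any 1 KO liver was left out. Tmem97 also lost its call without WT replicate 1 or 3, and Syvn1 without WT replicate 2. That of Erlin1 was lost without KO replicate 2 (adjusted p = 0.0563) and once its probe sets were averaged (0.14, adjusted p = 0.399).

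Of 7 measured genes of LXR and sterol efflux 2 were higher, Lpcat3, which remodels membrane phospholipids (0.68 ± 0.13), and Abcg1, a sterol exporter (0.38 ± 0.11). The call of Abcg1 was lost when WT replicate 2 or 3 or any KO liver was left out. Of 18 measured genes of lipoprotein uptake and sterol trafficking 3 were higher and 3 lower, against 14.2% and 9.75% of all genes. Gramd1c, of a family that moves sterols from the plasma membrane, stood at 9.02, 9.01 and 7.86 in WT and at 10.39, 10.19 and 10.36 in KO, a 3.21-fold rise (1.68 ± 0.29). Nceh1, a hydrolase of cholesterol esters, rose by 0.80 ± 0.12. Scarb1, the receptor for HDL, stood at 10.34, 10.36 and 10.60 in WT and at 9.54, 9.14 and 9.51 in KO, and its call as lower (-1.04 ± 0.14) held under each of the 18 alternatives. Lrp1, a receptor for lipoprotein remnants, was lower (-0.75 ± 0.11), a call lost once its probe sets were averaged (-0.32, adjusted p = 0.254) and after centring on bacterial control transcripts (-0.31). Srebf1, the SREBP gene of fatty acid synthesis, was lower (-1.13 ± 0.19), one of 3 lower and 2 higher among the 10 measured genes of SREBP-1 and lipogenesis. The largest difference down in that list was that of Thrsp, a lipogenic protein (-2.92 ± 0.30), and the largest up that of Me1, the malic enzyme (1.58 ± 0.26).

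Markers of the cells in the liver were read beside these results. The summed level of 6 measured hepatocyte markers was 16.53 to 16.56 in WT and 16.49 to 16.52 in KO, with 1 of them lower (Fgb). That of 8 stellate cell markers was 12.11 to 12.21 in WT and 11.76 to 11.98 in KO (2 lower, 0 higher), and that of 7 endothelial markers 10.98 to 11.25 and 10.62 to 10.82 (3 lower, and Lyve1 higher). The lower endothelial calls depended on single livers: without WT replicate 1 or any 1 KO liver 0 endothelial markers were lower, and without WT replicate 2 or 3 it was 1, while Lyve1 stayed higher. Lyve1 lay below background in all WT livers (4.87, 4.47 and 4.66, against 4.90), so its WT level is only a bound. The stellate count was 1 without any 1 liver other than WT replicate 3. The hepatocyte, stellate and endothelial sums did not overlap between the groups, and their part in the lower calls of Scap, Srebf2 and Insig2 was not tested. Such a sum is led by its brightest genes, in the stellate list Dcn and Reln, its 2 lower ones. Gene by gene, 4 stellate markers lay above 0 and 4 below, against 3 and 3 of the hepatocyte markers and 1 and 6 of the endothelial ones. The sum of 10 Kupffer cell and macrophage markers ran from 11.63 to 12.82 in WT and from 12.08 to 12.48 in KO, with 0 calls by limma and 0 at an unadjusted p under 0.05. That overlap rests on WT replicate 3 (11.63, against 12.82 and 12.68 in the other WT livers), and without it all KO sums lay below WT, 3 of the markers were lower and their median difference was -0.52. The sum of 5 cholangiocyte markers ran from 7.36 to 7.69 in WT and from 7.24 to 7.38 in KO, and that of 9 lymphocyte and neutrophil markers from 8.47 to 9.11 and from 8.20 to 8.81. One gene in each of the last 2 lists was below background on all arrays. Over all genes the lowest correlation within a group was 0.989 and the highest between WT and KO was 0.976. Pex5 itself differed by 0.18 ± 0.11 (adjusted p = 0.262), and as it is not known here if its probes cover the deleted part, this checks nothing.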

How the data were processed

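Total RNA of 6 livers (3 WT, 3 KO, 1 array each) was extracted with Trizol and labelled with biotin, per the labels' protocols. With RMA, named in the submitters' processing notes, the authors made the log2 value of each probe set that they deposited. The version is not given in the sources used here, and the log2 scale was read from the values (2.15 to 14.9). RMA draws the arrays to one distribution, so levels are relative, and dim probe sets have compressed differences. Of 45101 probe sets, 64 are controls, 34945 have 1 symbol, 932 several and 9160 are not listed in the annotation and unnamed here. All 26 measured member symbols matched the GRCm38.p6 gene table by gene identifier.

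The test was that of limma 3.58.1 (R 4.3.3, lmFit and eBayes, two-sided), with Benjamini-Hochberg adjustment over 18193 genes, or 45037 probe sets, without a filter. The fit was run on simulated data with independent noise and few changed genes. These arrays differ from that, so it checked only the code. Background is the level under which the means of 95% of 39 olfactory receptor genes lay. The members and lists were chosen with earlier results of these data known. The text names all members and, of each list, up to 4 changed genes with the largest difference, or up to 2 where none changed. Of genes fixed by that rule, some are given only as counts. Alternatives were a replicate block, a filter on low values, quantile normalization, centring on array medians (over the genes tested) or on 45 bacterial control probe sets, other probe set choices, trend and robust eBayes, array weights, other thresholds and leaving out each array. Centring on 38 control probe sets, without Cre and Trpn, was chosen after seeing the data. Precision is limited by the number of arrays.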

Additional observations from a re-analysis of the deposited data

How the results depend on the processing

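Of the 5 members with a call, Scap and Mbtps2 kept it under all 18 alternatives, Insig2 lost it only at an adjusted p under 0.01, and Hsd17b7 and Srebf2 lost it under 4 and 5. Of the 21 others, 6 passed nowhere and 8 only with centring on the bacterial controls or at an adjusted p under 0.1. The members gave 2 higher and 3 lower. There were 4 higher and 6 lower under quantile normalization, 4 and 5 under eBayes with trend and robust options or under an adjusted p under 0.1, 1 and 1 at an adjusted p under 0.01, 5 lower with the filter on low values and 5 lower with median centring. With the replicate number as a block 5 members were lower (Mvk and Dhcr7 joined). Deviations from the group means correlated between same-numbered arrays at r of 0.105, -0.018 and 0.105 over all genes and at 0.399, 0.021 and 0.267 over the 26 members. As replicate 2 shows none and not every array correlated best with its own number, the numbers were not taken as pairs. Without 1 liver the higher members numbered 1 to 3 and the lower ones 2 to 5, and their median difference ran from -0.19 (without KO replicate 1) to 0.20 (without WT replicate 1). Over all genes the 2589 higher ones became 1497 to 2424 and the 1774 lower ones 888 to 1679, the lowest counts being those without KO replicate 2. An adjusted p under 0.01 gave 1285 higher and 732 lower genes, and one under 0.1 gave 2834 lower. The share of calls that were higher, 59.3% as deposited, was 52.05% with quantile normalization, 50.3% with median centring, and 95.9% or 96.9% with the 2 control centrings described next.

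Centring on the bacterial controls, which adds 0.44 (45 probe sets) or 0.51 (38, without Cre and Trpn) to each difference by construction, moved the most. It gave 11086 higher and 475 lower genes, or 12970 and 409, and 12 higher and 2 lower members, or 14 and 2, with a median of 0.48 or 0.55. Among named genes with a call on either scale, signs turned under both for Bdh1 (0.30 and 0.37), Acat1 (0.41 and 0.49), Dcn (0.11 and 0.19), Clec4g (0.020 and 0.093) and Kdr (0.13 and 0.20). Sc5d lay above 0 under both and passed as higher under the second (0.40), while its probe set of largest interquartile range passed as lower (-0.89). Under the second alone signs turned for Srebf2 (0.025), Fgb (0.022), Reln (0.016), Tek (0.030) and Krt19 (0.0024). Which scale is nearer to transcripts per cell was not tested. Small differences of dim genes are limited by signal over background.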

Other observations

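Of the list of mitochondrial HMG-CoA and ketone enzymes 2 genes were measured, and 0 of them had a call (0 also at an unadjusted p under 0.05). Acat1, the mitochondrial thiolase of ketone body formation, differed by -0.03 ± 0.10 (SE, adjusted p = 0.866), and Bdh1, which turns acetoacetate into hydroxybutyrate, by -0.14 ± 0.11 (adjusted p = 0.372). Neither passed the test by limma on the deposited values. After centring on bacterial control transcripts both differences turned above 0 and both genes passed as higher. In the list of lipogenic genes Acss2, which makes acetyl-CoA from acetate, was lower (-0.70 ± 0.13, adjusted p = 0.00594) and Acaca, the acetyl-CoA carboxylase, higher (0.68 ± 0.15, adjusted p = 0.0142). Among the genes of sterol trafficking, Osbpl1a, an oxysterol-binding protein, was lower (-0.57 ± 0.10, adjusted p = 0.0048) and Npc2, the lysosomal cholesterol carrier, higher, close to the threshold (0.33 ± 0.10, adjusted p = 0.0495). Acaca, Osbpl1a and Npc2 lie outside the naming rule and were chosen after their values were seen.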
